A study of Mus musculus with 8 samples.

Results

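Acetylation of histone H4 was examined at 43 interferon-stimulated genes in mouse bone-marrow-derived macrophages (BMDMs), which are macrophages grown from bone marrow in culture. The genes were taken from a list of symbols and not by a cutoff on a measured value, and are 43 of the 21890 gene windows measured. Chromatin immunoprecipitation with an antibody to acetylated H4, followed by sequencing, gave 1 list of enriched stretches (peaks) for each of 8 libraries. The 4 groups were 25HC then PAM3, PAM3, 25HC, and untreated, and each held a library of mouse A and a library of mouse B, given below in that order. All cells were C57BL/6. 25HC is 25-hydroxycholesterol and PAM3 is PAM3CSK4. The stimulation time on the labels reads 18, with no unit, in the 4 libraries given PAM3 and 0 in the other 4. PAM3 and that time therefore cannot be told apart. Whether a library pools several cultures is not stated in the labels.

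Interferons signal through receptor-bound JAK kinases to transcription factors, among them STAT2 and IRF9, which act at a promoter element called ISRE. A second element, GAS, serves interferon gamma. The genes switched on in this way encode sensors of viral nucleic acid, inhibitors of translation and virus entry, GTPases that attack intracellular pathogens, and chemokines for lymphocytes. PAM3CSK4 is a synthetic lipopeptide that activates TLR2 with TLR1. 25-hydroxycholesterol is made from cholesterol by the product of Ch25h, itself an interferon-stimulated gene, and represses sterol synthesis. Acetylated H4 marks active promoters and enhancers.

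The promoters were first read for the 2 elements, since they tie these genes to interferon signalling. RefSeq promoters on GRCm38.p6, from 250 bases before to 50 after the start of transcription, were found for 34 of the 43 genes, with 40 promoters in all. The ISRE core searched was GAAA, any 2 bases, GAAA, on both strands, with overlapping matches allowed. It was present in 22 of the 40 promoters (55%), against 3.44% of 32851 promoters of the same length. The GAS letters TTCNNNGAA were present in 11 of the 40 (27.5%), against 8.30% of all promoters. By gene, 21 of 34 held the ISRE core and 11 held the GAS letters. A match describes the letters of the window and not a bound site. Stretches of 60 bases upstream of the start are given for 7 genes whose peaks are described below, 5′ to 3′ on the strand of the gene, with the ISRE core in capitals. Isg15 and Ifit1 hold several cores, Igtp and Irgm2 are close copies, Gbp2 and Rsad2, like Ifit1, carry it on the opposite strand, and Cxcl10 lacked a promoter peak in most libraries.
Isg15 (chr4:156200850-156200909, minus strand): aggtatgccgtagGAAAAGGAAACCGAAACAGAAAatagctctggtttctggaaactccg
Ifit1 (chr19:34640779-34640838, plus strand): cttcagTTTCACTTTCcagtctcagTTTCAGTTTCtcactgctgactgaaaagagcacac
Igtp (chr11:58199496-58199555, plus strand): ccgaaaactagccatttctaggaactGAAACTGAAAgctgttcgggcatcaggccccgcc
Irgm2 (chr11:58214888-58214947, plus strand): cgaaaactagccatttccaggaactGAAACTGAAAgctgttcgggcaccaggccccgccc
Gbp2 (chr3:142620579-142620638, plus strand): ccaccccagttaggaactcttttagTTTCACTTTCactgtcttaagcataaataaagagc
Rsad2 (chr12:26456538-26456597, minus strand): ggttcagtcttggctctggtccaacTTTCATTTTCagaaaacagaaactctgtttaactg
Cxcl10 (chr5:92349068-92349127, minus strand): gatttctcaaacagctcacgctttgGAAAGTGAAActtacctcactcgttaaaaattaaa

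Acetyl-H4 peaks already lay at most of these promoters in untreated cells. A peak within 500 bp of the same start of transcription was present in all 8 libraries at 23 of the 34 genes. By promoter it was present in all 8 at 26 of 40 (65%), against 62.4% of the promoters of all genes tested. Among the 21 genes with an ISRE core 15 had such a peak in all 8 libraries, and among the 13 without one 8 did. The Isg15, Igtp, Irgm2, Gbp2 and Rsad2 promoters printed above had a peak in all 8. The Cxcl9 promoter had no peak in any library. The Cxcl10 promoter had one only in PAM3 mouse B and untreated mouse A. Of the other 9 genes, counted at their best covered start, 6 lacked the peak in 1 library and 3 in 2 or 3 libraries. Trim30a is among the 6, but its starts lacked the peak in different libraries, 25HC then PAM3 mouse A and untreated mouse B. Those missing peaks fell in all 4 groups.

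The measure for each gene was its called length, the number of bp under peaks between 5 kb before and 5 kb after the gene body in a library. Changes are on the scale of log2(called bp + 500), with each library's median gene subtracted, and so understate changes of genes with short peaks. They were tested with limma over 14591 genes, and a gene is said to have risen or fallen where the Benjamini-Hochberg adjusted p was under 0.05. Called length follows the extent of peaks and not their height. The lists hold no read counts, so read depth is unknown. The lists held 48446 to 54552 peaks and covered 56.6 to 72.4 Mb, with the smallest cover in PAM3 mouse A and the largest in PAM3 mouse B. The authors' −log10 q, a score of confidence in a peak, was lower in libraries given PAM3, with or without 25HC. Its median was 5.13 to 6.34 in those libraries and 6.38 to 8.65 in libraries without PAM3. Peaks whose −log10 q reached 5 were 50.8 to 57.9% of each list with PAM3 and 58.1 to 66.5% without. Of the 43 genes 42 passed the filter of 500 bp mean called length. Cxcl11 did not, with 748 and 356 bp in the 25HC then PAM3 libraries, 372 and 377 bp with PAM3, 333 and 322 bp with 25HC, and 249 and 0 bp in untreated cells. No gene had both libraries of a group at 0. A single library was at 0 for Ifit1, Ifit2, Irf9 and Cxcl11, 2 were at 0 for Ifi35, and the other 38 genes had called length in all 8. Of all genes tested 87.5% did.

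As a set, the interferon-stimulated genes gave few calls. With PAM3 against untreated 1 of the 42 was called, Herc6, which fell, a share near the background of 3.88% of all genes tested. With 25HC then PAM3 against 25HC 1 was called, Igtp, which rose, where 5.02% of all genes were. Averaged over both pairs, PAM3 gave 2 calls, a rise of Ifih1 and a fall of Herc6, where 11.8% of all genes were called. With 25HC then PAM3 against PAM3 Igtp alone rose, where 1.3% of all genes were called. With 25HC against untreated no member was called (limma), and 0.0343% of all genes were. At an unadjusted p under 0.05 there was 1 member, against 4.65% of all genes. The average 25HC effect called no member, against 0.0685% of all genes, and 3 members passed the unadjusted threshold, against 11.4%. The interaction, which is the PAM3 response after 25HC minus the PAM3 response without it, called no member and 0% of all genes (limma), with 4 members under the unadjusted threshold, against 9.84%.

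**Figure D1:**
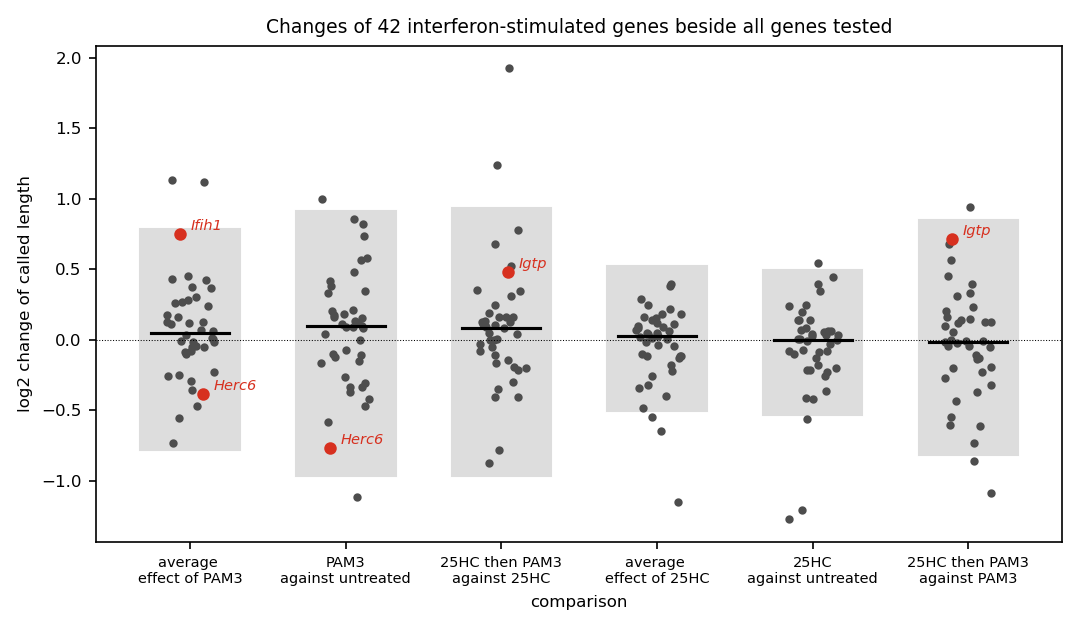
Log2 changes of called length in 6 comparisons. Each point is 1 of 42 interferon-stimulated genes, red points passed an adjusted p of 0.05 in limma, black bars are the medians, and grey boxes run from the 5th to the 95th percentile of all 14591 genes tested. Between 38 and 40 of the 42 genes lie inside the grey box in each comparison shown.

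The median change of the 42 genes was 0.096 on the log2 scale with PAM3 against untreated, where 25 were higher and 17 lower, and 0.086 with 25HC then PAM3 against 25HC, with the same split. The medians over all genes tested in these comparisons were −0.0060 and −0.017. The median was 0.0015 with 25HC against untreated and −0.014 with 25HC then PAM3 against PAM3. The average PAM3 effect had a median of 0.050, with 24 higher and 18 lower, the average 25HC effect one of 0.023, and the interaction one of −0.054. In log2 called length relative to the library's median gene, the median of the members was taken per library. It was −0.029 and 0.15 in 25HC then PAM3 libraries, −0.074 and 0.13 with PAM3, −0.071 and −0.013 with 25HC, and 0.14 and −0.012 in untreated cells. The 4 groups overlap. The summed called length of the 43 genes was 129491 and 146544 bp in 25HC then PAM3 libraries, 118522 and 160292 bp with PAM3, 118907 and 126178 bp with 25HC, and 140665 and 122065 bp in untreated cells. The 2 PAM3 libraries were the lowest and the highest of the 8, as they were in total covered length.

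**Figure D2:**
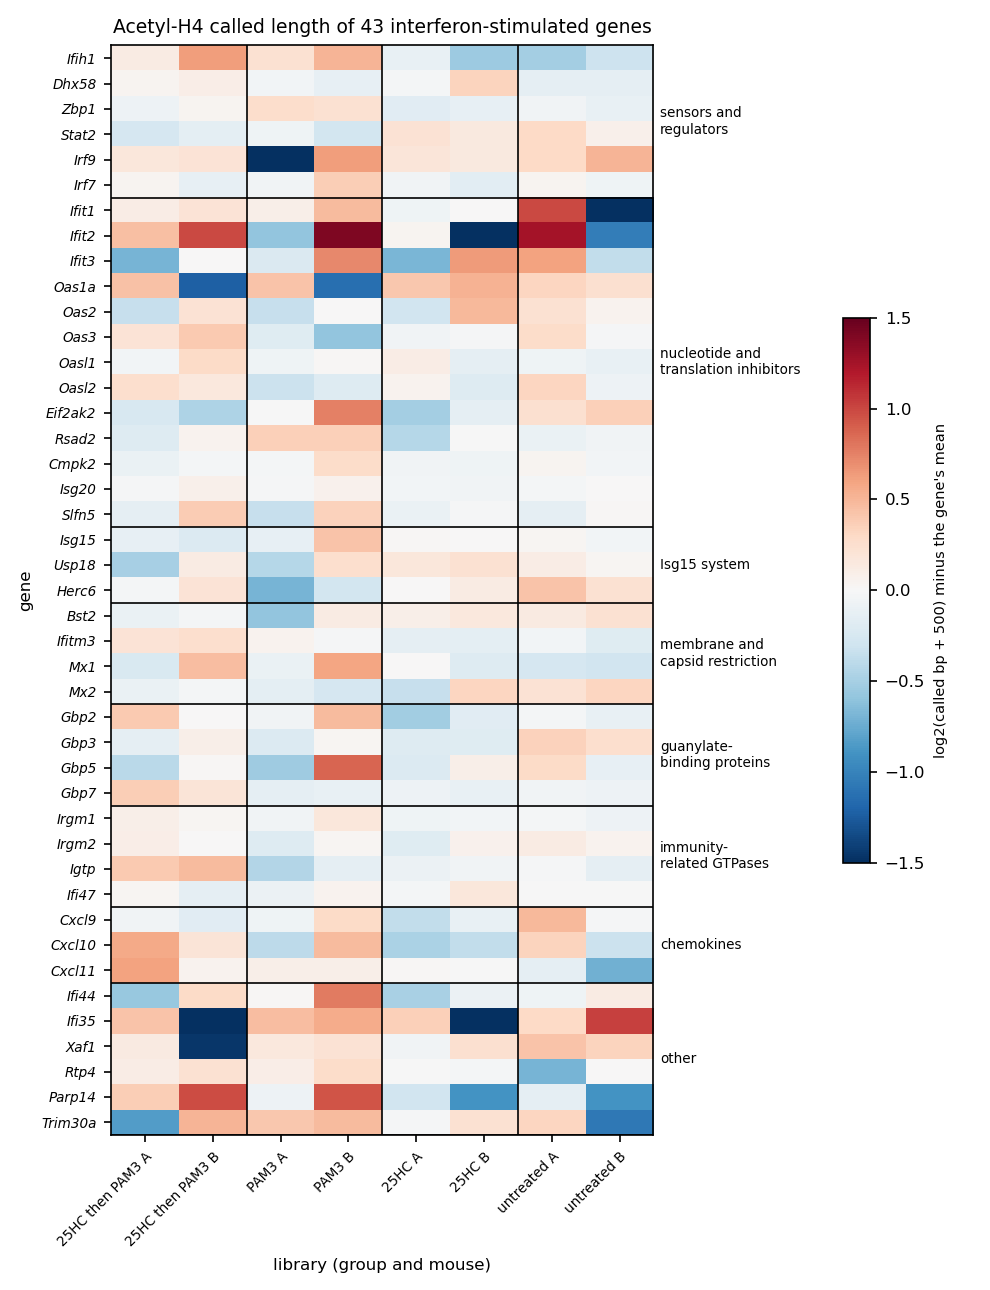
Called length of the 43 genes in 8 libraries, as log2(called bp + 500) minus the mean of that gene over the libraries, with no library median subtracted. Columns are libraries in 4 groups of 2 mice and rows are genes grouped by role. Ifih1 is above its mean in the 4 libraries with PAM3 and below it in the 4 without, while Ifit1, Ifit2 and Ifi35 differ strongly between the mice of a group.

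Some genes nonetheless ordered the libraries by treatment. After subtraction of the library median, the 4 libraries with PAM3 all lay above the 4 without for Ifih1, Zbp1, Gbp2, Rtp4 and Parp14, 5 of 42, a share near the 8.47% of all genes tested. They all lay below for Bst2, 1 of 42, against 9.84% of all genes. The 4 libraries with 25HC all lay above the 4 without for Igtp, 1 of 42 against 1.82%, and all below for Eif2ak2, 1 of 42 against 1.45%. In bp as measured, without that subtraction, Zbp1, Gbp2, Bst2 and Igtp overlapped between these sets of libraries.

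Peaks of the 8 libraries were also merged into regions, of which 149 touched the windows of the members and 83297 lay in the genome. Of the 149, 55 held a peak in all 8 libraries, against 29.8% of all regions, and 36 held one in a single library (24.2%, against 22.4% of all regions). A peak in all 4 libraries with PAM3 and none without was found at 1 region, within Ifih1, where the background is 1.68%. The opposite pattern was found at 3 regions, across the edge of Mx2, in Ifi47, and between Igtp and Irgm2, where the background is 1.63%. A region found in both 25HC then PAM3 libraries and no other lay just past Gbp7, 1 of 149 against 2.3% of all regions. No region was found only with PAM3, where the background is 1.18%, or only with 25HC, where it is 0.267%. Those of untreated cells alone numbered 2, past Gbp3 and within Oas2, against 0.924% of all regions.

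Among sensors and regulators, Ifih1 rose with PAM3. It encodes MDA5, the cytoplasmic sensor of long double-stranded RNA, and lies at chr2:62595618-62646255 (GRCm38). Its called length was 5049 and 7322 bp in 25HC then PAM3 libraries and 5448 and 6725 bp with PAM3, against 4197 and 2988 bp with 25HC and 3070 and 3600 bp in untreated cells. All 4 libraries with PAM3 were above all 4 without. The mean was 6136 ± 1066 bp with PAM3 and 3464 ± 559 bp without (SD, n = 4 libraries each, from 2 mice). The average log2 change was 0.75 (SE 0.15, limma adjusted p = 0.0348). A fit with mouse as a replicate block gave an adjusted p of 0.0667. The call ended without 6 of the 8 libraries, and held without 25HC then PAM3 mouse A (limma adjusted p = 0.0423) or 25HC mouse A (limma adjusted p = 0.0425). The change was 0.82 with PAM3 against untreated (limma adjusted p = 0.111) and 0.68 with 25HC then PAM3 against 25HC (limma adjusted p = 0.145), so neither pair passed alone.

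The extent gained at Ifih1 lay mainly inside the gene, away from its promoter. The promoter region covered 1490 and 1548 bp in 25HC then PAM3 libraries and 1515 and 1896 bp with PAM3, against 1468 and 1454 bp with 25HC and 1506 and 1522 bp in untreated cells. A region 26168 bp into the gene, chr2:62617409-62620087, held 1457 and 2678 bp of peak in 25HC then PAM3 libraries and 2300 and 1179 bp with PAM3, and no peak in the 4 libraries without PAM3. A region 9406 bp in had 1779 and 2557 bp in 25HC then PAM3 libraries and 1227 and 2128 bp with PAM3, against 1217 and 1178 bp with 25HC and 945 and 1003 bp in untreated cells. In the first of these regions the authors' fold enrichment of the strongest peak was 1.80 and 2.77 in 25HC then PAM3 libraries and 2.79 and 1.25 with PAM3. No other gene's window overlaps that of Ifih1.

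**Figure D3:**
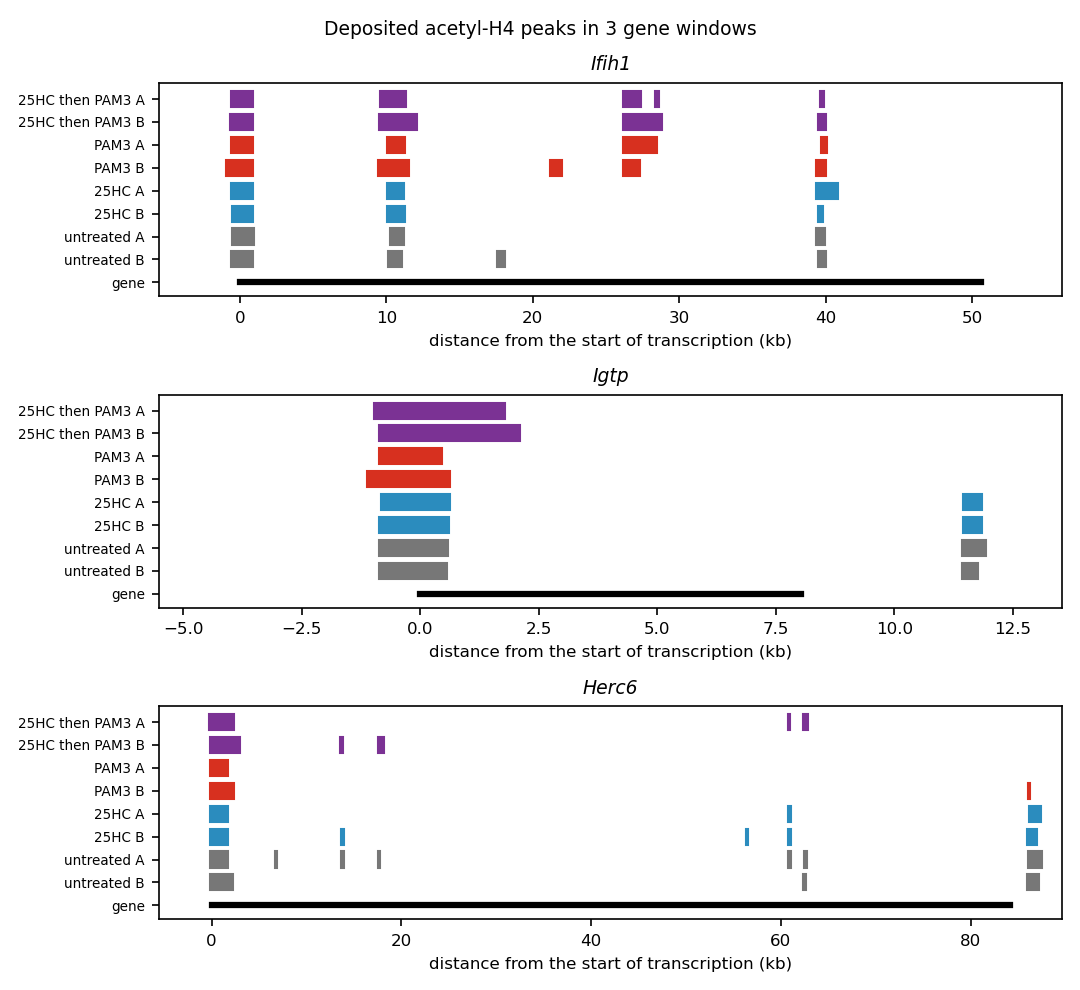
Deposited peaks in the windows of Ifih1, Igtp and Herc6 (gene body with 5 kb on either side). Each row is a library, coloured by group, the black bar is the gene body, and the x axis is the distance from the start of transcription in kb. A region within Ifih1 has peaks only in the 4 libraries with PAM3, the Igtp promoter peak is longest in the 2 libraries of 25HC then PAM3, and the region past the end of Herc6 is present in all 4 libraries without PAM3.

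The other sensors and regulators did not pass in any comparison. Zbp1, a sensor of Z-form nucleic acid that can trigger necroptosis, had 2271 and 2507 bp in 25HC then PAM3 libraries and 2994 and 2931 bp with PAM3, against 2100 and 2181 bp with 25HC and 2302 and 2190 bp in untreated cells (PAM3 against untreated log2 0.38, SE 0.11, limma adjusted p = 0.147). Dhx58, whose product LGP2 modulates MDA5, had 3614 and 3758 bp in 25HC then PAM3 libraries, 3366 and 3154 bp with PAM3, 3408 and 4512 bp with 25HC, and 3142 and 3137 bp in untreated cells. Its change with 25HC against untreated was 0.34 and did not pass, and in bp 25HC mouse B was the highest library. Stat2, the partner of IRF9, had 2269 and 2475 bp in 25HC then PAM3 libraries and 2659 and 2232 bp with PAM3, against 3335 and 3159 bp with 25HC and 3559 and 2982 bp in untreated cells. In bp it was shorter in all 4 libraries with PAM3, while after subtraction of the library median the sets overlapped, with an average log2 change of −0.36 (SE 0.12, limma adjusted p = 0.117, and 0.0383 without PAM3 mouse A). A region within the gene had 520 and 546 bp in 25HC then PAM3 libraries and 858 and 272 bp with PAM3, against 1394 and 1172 bp with 25HC and 1075 and 1040 bp in untreated cells. The Stat2 window overlaps those of Apof and Il23a. Irf9 had no called length in PAM3 mouse A and 1963 to 2934 bp in the other 7 libraries. Irf7, the factor that amplifies type I interferon output, ranged from 2040 to 3159 bp with overlap of all groups.

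Inhibitors of viral RNA and of translation were the largest group, and none of its 13 genes passed in any of the 7 comparisons, in which 0% to 11.8% of all genes did. The members of the Ifit cluster, whose products bind foreign 5′ RNA ends, differed widely between mice. Over Ifit2, Ifit3 and Ifit1 together (chr19:34550550-34650009), 6013 and 9040 bp were called in 25HC then PAM3 libraries, 4686 and 13109 bp with PAM3, 4874 and 5181 bp with 25HC, and 13023 and 2582 bp in untreated cells. The untreated mice were the second highest and the lowest of the 8 libraries. Ifit1 alone had 3004 bp in untreated mouse A and 0 bp in untreated mouse B, and 1186 to 1935 bp in the 6 treated libraries. Ifit2 had 3370 and 5152 bp in 25HC then PAM3 libraries, 1376 and 7000 bp with PAM3, 2419 and 0 bp with 25HC, and 6208 and 886 bp in untreated cells. In the cluster the libraries with PAM3 overlapped those without. Ifit3 ranged from 1245 bp in 25HC then PAM3 mouse A to 4174 bp in PAM3 mouse B.

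The Oas genes encode synthetases of 2′-5′-linked oligoadenylate, the activator of RNase L. The Oas2, Oas3 and Oas1a cluster had 6903 and 6808 bp in 25HC then PAM3 libraries and 5601 and 2937 bp with PAM3, against 5963 and 7762 bp with 25HC and 7672 and 6518 bp in untreated cells. Both PAM3 libraries were the lowest of the 8. Oas3 had 4885 and 5598 bp in 25HC then PAM3 libraries, 3606 and 2587 bp with PAM3, 4008 and 4090 bp with 25HC, and 5134 and 4114 bp in untreated cells. It was longer with 25HC then PAM3 against PAM3 by log2 0.68 (SE 0.22, limma adjusted p = 0.232), and its promoter region had 2961 and 2945 bp with 25HC then PAM3 against 1677 and 0 bp with PAM3. Its interaction was 0.78 (limma adjusted p = 0.500). Restricted to peaks whose −log10 q reached 5, these were −2.53 and −2.69. The Oas1a promoter peak was missing in mouse B of both groups given PAM3. The Oasl2 and Oasl1 pair had 8391 and 8953 bp in 25HC then PAM3 libraries, 6486 and 7028 bp with PAM3, 8056 and 6654 bp with 25HC, and 8582 and 7065 bp in untreated cells. The windows of Oas1a, Oas2 and Oas3 overlap those of close paralogs, so peaks may be shared between genes. Whether reads were shared too was not tested.

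Eif2ak2 encodes PKR, the double-stranded RNA kinase that halts translation. It had 1791 and 1457 bp in 25HC then PAM3 libraries, 2185 and 4062 bp with PAM3, 1393 and 1952 bp with 25HC, and 2692 and 2956 bp in untreated cells. The 4 libraries with 25HC averaged 1648 ± 267 bp and the 4 without 2974 ± 793 bp (SD, n = 4 libraries each, from 2 mice), with no overlap. The average 25HC change of −0.65 (SE 0.16) had a limma adjusted p of 0.207. It was 0.14 when −log10 q had to reach 5. Rsad2 encodes viperin, which makes a chain-terminating nucleotide. It had 3608 and 4367 bp in 25HC then PAM3 libraries, 5506 and 5494 bp with PAM3, 2987 and 4163 bp with 25HC, and 3879 and 4023 bp in untreated cells. The PAM3 libraries were the highest, and part of their excess lay in a region 2603 bp upstream of the start of transcription, chr12:26459055-26461346. That region had 746 and 770 bp in 25HC then PAM3 libraries and 1601 and 2292 bp with PAM3, against 803 and 479 bp with 25HC and 751 and 788 bp in untreated cells. Its neighbour Cmpk2, a mitochondrial nucleotide kinase, ranged from 1053 to 1518 bp. Isg20, an exonuclease, had 2306 to 2552 bp, and Slfn5, a Schlafen protein, ranged from 1955 to 3588 bp.

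In the ISG15 system, Herc6 fell with PAM3 against untreated. Its product is the main ligase that attaches ISG15 to proteins in mice, and the gene lies at chr6:57580992-57665136 (GRCm38). It had 3338 and 4034 bp in 25HC then PAM3 libraries and 1922 and 2747 bp with PAM3, against 3445 and 3777 bp with 25HC and 4771 and 4105 bp in untreated cells. The PAM3 libraries were the lowest and the untreated ones the highest, while 25HC then PAM3 overlapped 25HC. The log2 change was −0.77 with PAM3 against untreated (SE 0.13, limma adjusted p = 0.0380) and −0.38 for the average PAM3 effect (SE 0.09, limma adjusted p = 0.0472). A fit with mouse as a replicate block gave 0.0738 and 0.0763, and both calls ended without any one of the 8 libraries. Restricted to peaks whose −log10 q reached 5, the change against untreated was 0.28. The fall did not lie at the promoter. A region 1760 bp past the end of the gene, chr6:57666896-57668547, had no peak in the 25HC then PAM3 libraries and 0 and 286 bp with PAM3, against 1203 and 1155 bp with 25HC and 1494 and 1360 bp in untreated cells. With flanks of 1 kb, which leave that region out, the change was −0.35 with PAM3 against untreated and 0.066 for the average effect, and neither passed. The promoter region was longer with 25HC then PAM3, at 2635 and 3102 bp, against 1922 and 2461 bp with PAM3, 1910 and 1860 bp with 25HC, and 1891 and 2424 bp in untreated cells.

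Isg15 itself, the ubiquitin-like modifier, had 3495 and 3262 bp in 25HC then PAM3 libraries, 3477 and 5332 bp with PAM3, 3896 and 3867 bp with 25HC, and 3920 and 3713 bp in untreated cells. Only PAM3 mouse B stood apart, and no comparison passed. Its window was the most fully covered of the 42 genes tested, with 34.0% under peaks on average, against a median of 11.3% for the 42 and 8.33% for all genes tested. That window is 11395 bp long and overlaps those of Agrn and Perm1. A region with a peak in all 8 libraries, chr4:156196686-156198641, lay in the flank of Isg15. Usp18, which removes ISG15 and blocks the type I interferon receptor, ranged from 3454 to 6166 bp, with mouse A below mouse B in both groups given PAM3.

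The genes that restrict virus entry, capsids and release did not pass. Bst2 encodes tetherin, which holds budding virus on the cell. It had 2742 and 2915 bp in 25HC then PAM3 libraries and 1821 and 3286 bp with PAM3, against 3193 and 3401 bp with 25HC and 3327 and 3581 bp in untreated cells. Ifitm3, which blocks fusion of incoming virus, had 3498 and 3634 bp in 25HC then PAM3 libraries against 2665 and 2627 bp with 25HC, a change of log2 0.35 (SE 0.13, limma adjusted p = 0.191). It had 3083 and 2932 bp with PAM3, against 2876 and 2545 bp in untreated cells. Mx1 and Mx2 belong to a family of dynamin-like GTPases that trap viral particles, but both are annotated as transcribed pseudogenes in the RefSeq table. Mx1 had 1814 and 3231 bp in 25HC then PAM3 libraries, 2026 and 3593 bp with PAM3, 2209 and 1872 bp with 25HC, and 1777 and 1718 bp in untreated cells. A region across the edge of Mx2, chr16:97560046-97561219, had no peak in the 4 libraries with PAM3. It had 225 and 709 bp with 25HC and 522 and 625 bp in untreated cells. Summed over the gene, Mx2 overlapped between groups, from 2712 to 4623 bp.

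The guanylate-binding proteins attack the vacuoles of intracellular pathogens, and their 4 genes lie side by side on chromosome 3. The cluster had 9720 and 9587 bp in 25HC then PAM3 libraries, 7586 and 12800 bp with PAM3, 7180 and 8399 bp with 25HC, and 10508 and 9207 bp in untreated cells. Its groups overlapped. Gbp2 had 4315 and 3182 bp in 25HC then PAM3 libraries and 3027 and 4602 bp with PAM3, against 2054 and 2750 bp with 25HC and 3077 and 2896 bp in untreated cells. Gbp3 had 2569 and 3082 bp in 25HC then PAM3 libraries, 2425 and 2950 bp with PAM3, 2460 and 2480 bp with 25HC, and 3781 and 3511 bp in untreated cells. Untreated cells were the highest in both mice, with log2 changes of −0.34 for PAM3 (limma adjusted p = 0.142) and −0.42 for 25HC (limma adjusted p = 0.679). That excess was a region 3711 bp past the gene, chr3:142576924-142578200, with 1277 and 1052 bp in untreated cells and no peak in the 6 treated libraries. With 1 kb flanks the same changes were 0.13 and 0.055. Gbp5 ranged from 1380 to 4470 bp, both extremes in PAM3 libraries. Gbp7 had 1278 and 1078 bp in 25HC then PAM3 libraries and 754 to 823 bp in the other 6, from the region just past its end, at 493 and 299 bp.

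Among the immunity-related GTPases, which act with the guanylate-binding proteins, Igtp rose with 25HC then PAM3. It encodes Irgm3 and lies at chr11:58199556-58207592 (GRCm38). Its called length was 2774 and 2960 bp in 25HC then PAM3 libraries, 1337 and 1756 bp with PAM3, 1846 and 1891 bp with 25HC, and 1953 and 1764 bp in untreated cells. Both libraries of 25HC then PAM3 were above all 6 others. The log2 change was 0.72 against PAM3 (SE 0.09, limma adjusted p = 0.0370) and 0.48 against 25HC (SE 0.09, limma adjusted p = 0.0484). A fit with mouse as a replicate block gave 0.0937 and 0.0870, and both calls ended without any one of the 8 libraries. The interaction was 0.65 (SE 0.13) and did not pass (limma adjusted p = 0.201), nor did the average 25HC effect of 0.39 (limma adjusted p = 0.112). These comparisons share libraries with each other.

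The change at Igtp lay in the peak over the promoter printed above, at its edge inside the gene. That peak ended 1799 and 2096 bp past the start of transcription in 25HC then PAM3 libraries. In the other libraries it ended 460 to 637 bp past the start. Within 500 bp of the start, 961 to 1001 of 1001 bp were covered in every library. The promoter region, chr11:58198432-58201652, had 2774 and 2960 bp in 25HC then PAM3 libraries, 1337 and 1756 bp with PAM3, 1453 and 1483 bp with 25HC, and 1460 and 1434 bp in untreated cells. The authors' fold enrichment of its strongest peak did not follow the length, with 1.66 and 3.29 in 25HC then PAM3 libraries, 1.38 and 1.45 with PAM3, 2.68 and 2.58 with 25HC, and 2.41 and 2.53 in untreated cells. The −log10 q of that peak was 2.96 and 32.6 in 25HC then PAM3 libraries and 3.11 and 2.28 with PAM3, against 19.7 and 24.0 with 25HC and 17.9 and 14.9 in untreated cells. Restricted to peaks whose −log10 q reached 5, which drops it in 3 of the 4 libraries with PAM3, the Igtp change against 25HC was −0.75. A second region, chr11:58210988-58211480, lies between Igtp and Irgm2 and within both windows. It had no peak in the 4 libraries with PAM3, against 393 and 408 bp with 25HC and 493 and 330 bp in untreated cells. Where the Igtp and Irgm2 promoters align, 91.4% of the letters are identical, so reads may be shared between the copies. The placement of such reads is not stated in the labels. The Igtp window also overlaps that of Gm12250.

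The other GTPases of this family did not pass. Irgm2 ranged from 3884 to 4966 bp and Irgm1 from 2217 to 2712 bp. Ifi47 ranged from 7568 to 9494 bp, and a region within it, chr11:49092353-49093102, had no peak in the 4 libraries with PAM3, against 687 and 729 bp with 25HC and 253 and 745 bp in untreated cells. The summed lengths overlapped between groups.

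The chemokines Cxcl9 and Cxcl10 are ligands of CXCR3 that draw in T and NK cells, and lie together with Cxcl11 on chromosome 5. Cxcl11, of the same family, is annotated as a transcribed pseudogene in the RefSeq table. The cluster had 4692 and 3486 bp in 25HC then PAM3 libraries, 2943 and 4727 bp with PAM3, 2416 and 2849 bp with 25HC, and 4763 and 2709 bp in untreated cells. Untreated mouse A was the highest and 25HC mouse A the lowest, and the groups overlapped. Cxcl10 had 2277 and 1633 bp in 25HC then PAM3 libraries, 921 and 2104 bp with PAM3, 843 and 948 bp with 25HC, and 1861 and 993 bp in untreated cells. Cxcl9 had 1667 and 1497 bp in 25HC then PAM3 libraries, 1650 and 2246 bp with PAM3, 1240 and 1579 bp with 25HC, and 2653 and 1716 bp in untreated cells. Its change with 25HC against untreated was −0.41 and did not pass, and its average 25HC effect −0.32 (limma adjusted p = 0.453). All Cxcl9 peaks lay in the flanks of the gene.

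Of the remaining genes, Parp14 had the second largest average PAM3 effect of the 42. It encodes a mono-ADP-ribosyltransferase. It had 7128 and 11117 bp in 25HC then PAM3 libraries and 5088 and 10832 bp with PAM3, against 4337 and 2673 bp with 25HC and 4853 and 2667 bp in untreated cells. Mouse B was the higher with PAM3 and the lower without it. The average change was 1.12 (SE 0.29, limma adjusted p = 0.0668) and that of 25HC then PAM3 against 25HC 1.24 (limma adjusted p = 0.159). The region over the start of the gene had 3242 and 3195 bp in 25HC then PAM3 libraries and 3141 and 3191 bp with PAM3, against 3235 and 2307 bp with 25HC and 3182 and 2196 bp in untreated cells. It was thus longer with PAM3 in mouse B and alike in mouse A. One region within the gene, chr16:35844538-35847280, had 2743 and 1846 bp in 25HC then PAM3 libraries and 0 and 1116 bp with PAM3, and another, chr16:35854693-35857064, had 0 and 1292 bp in 25HC then PAM3 libraries and 1025 and 2303 bp with PAM3. Neither had a peak in the 4 libraries without PAM3. Rtp4, an interferon-induced chaperone gene, had 8889 and 9660 bp in 25HC then PAM3 libraries and 8800 and 9957 bp with PAM3, against 8153 and 8017 bp with 25HC and 4839 and 8215 bp in untreated cells. Ifi44 ranged from 1132 to 3648 bp and Trim30a from 1676 to 5981 bp. Ifi35 had no called length in mouse B of 25HC then PAM3 and of 25HC. Xaf1, a partner of the apoptosis inhibitor XIAP, had 312 bp in 25HC then PAM3 mouse B and 1664 to 2526 bp elsewhere. None of these genes passed.

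**Figure D4:**
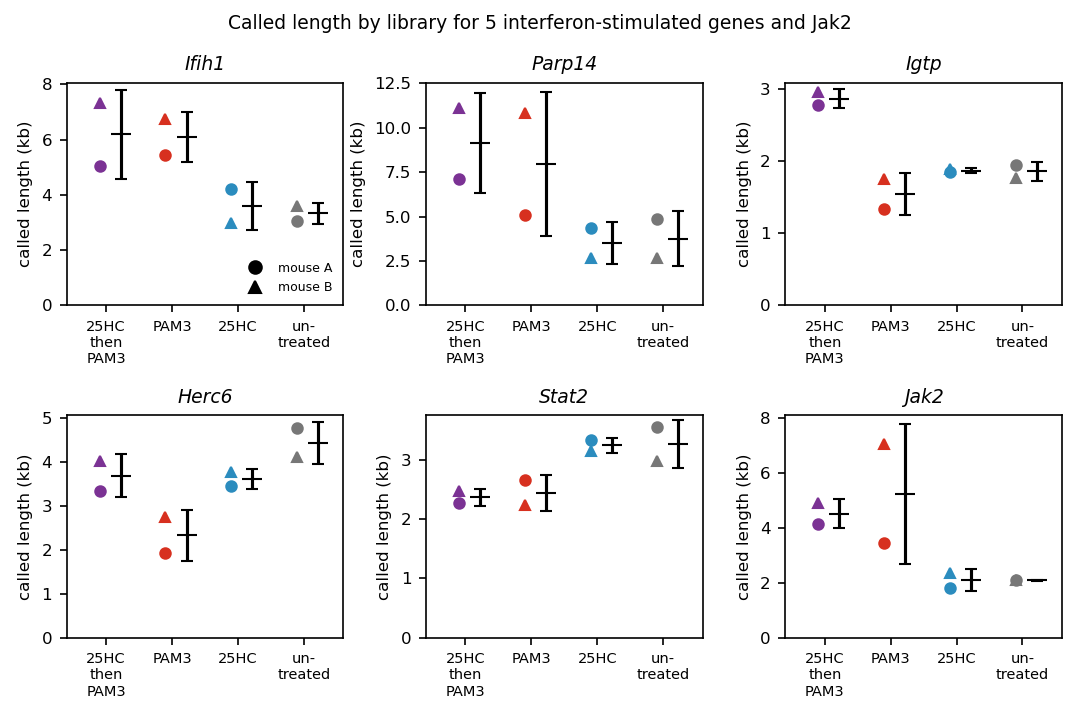
Called length in kb by library for Ifih1, Parp14, Igtp, Herc6, Stat2 and the upstream gene Jak2. Circles are mouse A, triangles mouse B, and bars the mean ± SD of the 2 libraries of a group. All 4 libraries with PAM3 lie above the 4 without for Ifih1, Parp14 and Jak2 and below them for Stat2, and Igtp is highest with 25HC then PAM3.

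Genes upstream of this set were examined next. Of 26 listed ligands, receptors, kinases, factors and sensors, 25 were tested, and Ifna4 had no peak in any library. In the average PAM3 effect 2 rose and 1 fell, a share near the 11.8% called over all genes, and the median of the 25 was −0.032. Jak2, a kinase of the type II interferon receptor, had 4135 and 4890 bp in 25HC then PAM3 libraries and 3446 and 7052 bp with PAM3, against 1811 and 2369 bp with 25HC and 2106 and 2083 bp in untreated cells (1.03, SE 0.17, limma adjusted p = 0.0205, and 0.0259 with the replicate block). The Jak2 call ended without 25HC then PAM3 mouse B, or without any of the 4 libraries lacking PAM3. All 4 libraries with PAM3 were above all 4 without. Jak2 shares part of its window with Insl6.

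Ticam1, the adaptor TRIF, averaged 5957 ± 343 bp with PAM3 and 4752 ± 143 bp without (SD, n = 4 libraries each, from 2 mice). Its change was 0.31 (limma adjusted p = 0.0418, and 0.0657 with the block). Ifnar2, a chain of the type I interferon receptor, fell. It had 10582 and 9328 bp in 25HC then PAM3 libraries and 6459 and 7617 bp with PAM3, against 10410 and 11319 bp with 25HC and 12856 and 12591 bp in untreated cells. Its average PAM3 effect was −0.46 (limma adjusted p = 0.0220, and 0.0434 with the block), and with PAM3 against untreated it was −0.77 (limma adjusted p = 0.0308, and 0.0643 with the block). With 25HC then PAM3 against 25HC the Ifnar2 change was −0.15 and did not pass (limma adjusted p = 0.542). Nor did its interaction of 0.62 (limma adjusted p = 0.293). The Ticam1 call ended without any one of the 8 libraries, and the average call of Ifnar2 without PAM3 mouse B or any of the 4 libraries lacking PAM3. Its call against untreated ended without any library other than those of 25HC then PAM3. The window of Ticam1 overlaps Fem1a and Plin3, and that of Ifnar2 overlaps Il10rb. Ifnb1, the gene of interferon beta, had 896 and 284 bp in 25HC then PAM3 libraries, 812 and 745 bp with PAM3, 432 and 871 bp with 25HC, and 861 and 876 bp in untreated cells. It overlapped between groups and did not pass. With PAM3 against untreated Ifnar2 alone of the 25 was called, where 3.88% of all genes were. None of the 25 passed (limma) with 25HC then PAM3 against 25HC, where 5.02% of all genes did. None did with 25HC against untreated (0.0343% of all genes) or with 25HC then PAM3 against PAM3 (1.3%). The same held for the average 25HC effect (0.0685%) and the interaction (0%).

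The labelled cell type was checked against marker genes. All 9 macrophage markers had peaks in all 8 libraries, with 69062 to 95025 bp summed in the 4 libraries with PAM3 and 63263 to 75115 bp in the 4 without, and Adgre1, Cd14 and Itgam rose in the average PAM3 effect. At 0 in all 8 libraries were the T cell genes Cd3e and Cd8a, the NK genes Ncr1 and Gzma, the B cell gene Pax5, the neutrophil genes S100a9, Ly6g and Retnlg, and the fibroblast gene Col1a2. Other markers of these lists had peaks in all 8 libraries. They were 3 of 5 for T cells (Cd3g, Cd4 and Lck) and 2 of 6 for neutrophils (S100a8 and Elane). They were also 2 of 5 for fibroblasts and endothelium (Pecam1 and Cdh5), 1 of 4 for B cells (Ms4a1) and 0 of 3 for NK cells. Of 6 dendritic cell markers, Siglech and Clec9a fell and Xcr1 rose in the average PAM3 effect, and their summed length was 17971 to 23032 bp with PAM3 and 22145 to 30022 bp without. Elane, a neutrophil granule gene, and Cd4 fell. Summed lengths with and without PAM3 were 1270 to 3363 and 3298 to 4036 bp for 6 neutrophil markers, and 6258 to 8280 and 7945 to 9158 bp for 5 T cell markers. They were 3073 to 4993 and 3211 to 6711 bp for 4 B cell markers, 0 to 2652 and 904 to 2530 bp for 3 NK markers, and 12324 to 13525 and 10751 to 14990 bp for 5 fibroblast and endothelial markers. In the comparisons where Igtp rose, markers moved too. Siglech had 1854 and 1804 bp in 25HC then PAM3 libraries, 325 and 329 bp with PAM3, and 3559 and 4120 bp with 25HC. It rose against PAM3 (1.49, limma adjusted p = 0.0237) and fell against 25HC (−0.92, limma adjusted p = 0.0312). Cd14 had 5240 and 6774 bp in 25HC then PAM3 libraries, 2499 and 3510 bp with PAM3, and 2871 and 2837 bp with 25HC. It rose against PAM3 (0.89, limma adjusted p = 0.0467) and against 25HC (0.92, limma adjusted p = 0.0249), and Adgre1 rose against 25HC (1.48, limma adjusted p = 0.0106). With PAM3 against untreated, where Herc6 fell, Siglech, Clec9a and Elane fell and Adgre1 rose. The part of other cells in the changes at Ifih1, Herc6, Igtp and Jak2 was not tested. In such bulk libraries fewer cells with a peak and a shorter peak per cell cannot be told apart. The p-values rest on the spread between the 2 libraries of a group, 1 from each mouse, pooled over the 4 groups. Libraries of the same mouse in different groups were treated as independent, except in the fits with a replicate block.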

How the data were processed

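Acetyl-H4 ChIP-seq was analysed in 8 libraries of C57BL/6 bone-marrow-derived macrophages, 2 mice in each of 4 groups. The submitters' processing notes name GSNAP, MACS2 2.1.0 and GRCm38 (mm10), and the lists have the MACS2 broad peak layout. Each deposited list gives peak starts and ends, the authors' score, their fold enrichment ratio and their −log10 p and q. Calling thresholds and any control library are not stated in the labels. With read depth unknown, no counting interval was computed.

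Called length was summed per gene window (RefSeq gene bodies of protein-coding genes and of Mx1, Mx2 and Cxcl11, annotated as transcribed pseudogenes, on GRCm38.p6 with 5 kb on either side). It was taken as log2(bp + 500) minus the library median. limma 3.58.1 (R 4.3.3, trend and robust empirical Bayes) fitted all 4 groups in 1 model, for the 14591 genes with a mean of at least 500 bp and for 7 contrasts. Residual degrees of freedom were 4, and 3 where mouse entered as a replicate block. A label field gives the mouse as A or B, so equal letters pair libraries. Over all genes, paired deviations correlated at −0.017 to 0.030, and over the members at −0.30 to 0.37. The windows of 35 members overlap another gene's. Clusters joined members within 200 kb. Without median subtraction the median gene shifted by less than 0.1 on the log2 scale.

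The members are a list of symbols, with no cutoff on a measured value, but they, the gene lists and the tests were chosen with earlier results of these data known. Per-library values are given for members called in any contrast, for the 4 smallest p per contrast, and for examples of each cluster, with upstream genes by smallest p. One listed upstream gene is not reported here. Other genes and regions named were chosen after their values were seen. Alternatives changed the flank, peak threshold, offset, filter, scaling, block and libraries. The fit was tested on simulated data. Promoter sequences are from RefSeq on GRCm38.p6.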

Additional observations from a re-analysis of the deposited data

How the results depend on the processing

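No call among the interferon-stimulated genes held under all 17 alternatives (16 for the average effects and the difference). The counts of called members for the average PAM3 effect and for the PAM3 against untreated, 25HC then PAM3 against PAM3, and 25HC then PAM3 against 25HC comparisons were 0 in a fit with mouse as a replicate block, 0 where −log10 q had to reach 5, and 0 without median subtraction. The fits of 25HC then PAM3 against PAM3, of PAM3 against untreated and of 25HC then PAM3 against 25HC on their own libraries also gave 0. So did 1 kb flanks for PAM3 against untreated, and for 25HC then PAM3 against 25HC whole peaks taken by midpoint and no filter. The average PAM3 effect gave 1 with an offset of 2000 bp and 1 with no filter. Leaving out 1 library each gave 0 to 1 called members in each of the first 3 comparisons and in 25HC against untreated and the average 25HC effect, and 0 to 2 for the average PAM3 effect. The calls of Herc6 and Igtp ended without any of the 8 libraries, and that of Ifih1 held without 25HC then PAM3 mouse A (adjusted p = 0.0423) and without 25HC mouse A (0.0425). Such fits have 1 library fewer. Calls seen only with 1 library left out were of Xaf1, Irf9, Ifit1, Stat2, Bst2 and Rtp4, where Xaf1, Irf9 and Ifit1 rest on a lone library at or near 0. With 1 kb flanks Igtp was called in the average PAM3 effect (0.40, adjusted p = 0.00938). Of 16 alternatives, Jak2 kept its average PAM3 call in 8, Ifnar2 in 9 and Ticam1 in 5. Signs turned where −log10 q had to reach 5 for Herc6 (0.28 with PAM3 against untreated, −1.18 with 25HC then PAM3 against PAM3, −1.31 for the difference), Igtp (−0.75 with 25HC then PAM3 against 25HC), Dhx58 (−1.92) and Cxcl9 (0.52) with 25HC against untreated, Cxcl9 (0.42) and Eif2ak2 (0.14) in the average 25HC effect, Eif2ak2 (0.47) and Oas3 (−2.53) with 25HC then PAM3 against PAM3, and Oas3 (−2.69) for the difference. With 1 kb flanks they turned for Gbp3 (0.13 with PAM3 against untreated, 0.055 with 25HC against untreated, 0.057 for the average 25HC effect) and Herc6 (0.066 for the average PAM3 effect), whose flank regions are then left out. The cause of the other turns was not tested. The limit on −log10 q kept a smaller share of the peaks in each library given PAM3 than in any library without it. Of single-gene values 416 kept their direction and side of the threshold, 95 kept their direction and lost their call, 15 reversed and 1 passed only in an alternative. The 416 include values that were not called in the main fit and stayed uncalled. Ifih1 kept its average PAM3 call in 7 of 16 alternatives and Herc6 in 2 of 16. The Herc6 call against untreated was kept in 4 of 17. Those of Igtp were kept in 5 of 17 against PAM3 and 3 of 17 against 25HC. The members' median with PAM3 against untreated ranged from −0.0057 to 0.31, and that of the average PAM3 effect from 0.024 to 0.11. Unknown read depth limits every length, since shorter or missing peaks cannot be told apart from fewer reads.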
